A study of Homo sapiens with 12 samples.

Results

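The genes described here are 10 genes of the extracellular matrix, which are FN1 (fibronectin), ELN (elastin), FBN1 and FBN2 (fibrillins), LOX (lysyl oxidase), SPARC, TNC (tenascin C), POSTN (periostin), THBS1 and THBS2 (thrombospondins). They were found by symbol among the 62069 genes of the count table, and 10 of 10 passed the filter on low counts that left 15284 genes for testing. The set was selected on the read count of FN1, which was the highest in every library, and the other members were listed with earlier results of these data known, so the rank of FN1 is given as a description only. RNA-seq counts came from IMR90 ER:RAS, a line of lung fibroblasts whose RAS transgene is joined to an estrogen receptor domain, and in which 4-hydroxytamoxifen (4OHT) therefore switches RAS on and starts oncogene-induced senescence (OIS). The 4 groups of 3 libraries were shXPO7_3/4OHT, shXPO7_5/4OHT, their induced control vector/4OHT and vector, which had no 4OHT, all from the same ER:RAS cells at passage 13, grown in serum for 7 days with fresh medium on day 4 and labelled day 5, with 100 nM 4OHT in the induced groups. The shRNA groups carried 1 of a pair of hairpins against XPO7, which codes for a nuclear transport receptor, and that the other groups carried a control vector is known from the study's text, since the labels say only whether cells were induced. No group combined an XPO7 shRNA with the absence of 4OHT, and nothing says that the 3 libraries of a group were grown as separate cultures, so p-values cover a spread between libraries that may be technical. The comparisons ask what OIS did to these genes and whether depletion of XPO7 altered their level in induced cells.

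Fibronectin is secreted by fibroblasts as a dimer and assembled at the cell surface, through integrins, into fibrils on which other matrix proteins are laid down. Elastic fibres consist of elastin deposited on microfibrils of fibrillin, and lysyl oxidase crosslinks elastin and collagen outside the cell. Matricellular proteins such as SPARC, tenascin C, periostin and the thrombospondins sit in the matrix and tune adhesion and growth factor signalling more than they build structure.

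Promoter sequences are shown for POSTN and TNC, the members called higher in OIS, for LOX and THBS2, which fell most of the members with an entry, and for FN1, the most read gene. They come from RefSeq (GRCh38.p14), which held an entry for 9 of the 10 members (not ELN), and run from the gene's strand, 5′ to 3′, up to the base before the annotated start. Capitals mark matches, on either strand, to the TATA motifs TATAAA and TATATA (which can overlap each other), CCAAT, the GC box GGGCGG, the cyclic AMP response element TGACGTCA and the AP-1 motif TGAGTCA. The LOX table entry lists 3 starts, and the outermost was used.
POSTN, chr13:37598769-37598868, minus strand: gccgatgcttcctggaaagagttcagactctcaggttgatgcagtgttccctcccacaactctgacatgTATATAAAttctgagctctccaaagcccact
TNC, chr9:115118158-115118257, minus strand: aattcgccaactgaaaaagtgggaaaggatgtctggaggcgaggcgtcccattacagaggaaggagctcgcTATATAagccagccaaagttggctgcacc
LOX, chr5:122078260-122078359, minus strand: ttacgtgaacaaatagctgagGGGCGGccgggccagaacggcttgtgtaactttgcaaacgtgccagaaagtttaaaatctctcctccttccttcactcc
THBS2, chr6:169253847-169253946, minus strand: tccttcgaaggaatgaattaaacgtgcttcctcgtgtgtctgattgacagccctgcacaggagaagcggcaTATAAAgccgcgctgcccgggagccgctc
FN1, chr2:215436069-215436268, minus strand: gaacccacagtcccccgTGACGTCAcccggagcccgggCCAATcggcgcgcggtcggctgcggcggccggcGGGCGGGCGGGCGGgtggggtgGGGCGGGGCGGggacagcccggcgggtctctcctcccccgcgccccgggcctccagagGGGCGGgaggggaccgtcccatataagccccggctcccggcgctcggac
TATATA stood 31 bases before the start of POSTN and 29 bases before that of TNC, and TATAAA stood 29 bases before the starts of POSTN and THBS2. LOX had a GC box 79 bases before its start. Beyond the bases printed, the table's entries also held CCAAT 109 bases before the start of LOX, TGAGTCA at 220 and TATAAA on the other strand at 182 in POSTN, and a GC box at 229 in TNC. FN1 had TGACGTCA at 183 bases, CCAAT at 162 and GC boxes at 129, 125, 121, 107, 102 and 49 bases before its start. Among all 35116 promoters of the table, taken from 250 bases before to 50 bases after the start, TATATA was found in 3.99%, TATAAA in 11.5%, CCAAT in 34.6%, GGGCGG in 45.0%, TGACGTCA in 1.85% and TGAGTCA in 4.95%. A match describes letters in this window and not a bound site.

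Totals per library ran from 28534141 to 60397769 counts. XPO7 had 134.5 ± 7.04 CPM (read counts scaled for sequencing depth with TMM factors, mean ± SD, n = 3) in vector and 137 ± 8.81 in vector/4OHT, and it fell to 27.7 ± 1.14 with shXPO7_3 and 52.2 ± 1.62 with shXPO7_5. All 8 fibroblast markers were detected in every group, at a summed 16696 to 27880 CPM, while 6 leukocyte markers summed to at most 0.340 CPM. The 6 endothelial markers summed to 8.94 to 15.05 CPM, with PECAM1 and CDH5 at 0 counts in all groups and TEK the highest (12.4 CPM in vector), and 6 epithelial markers to 41.5 to 90.1 CPM. The libraries differed in how GC-rich transcripts were represented. Across 14864 genes, a library's log2 ratio to the mean of vector/4OHT was correlated with the GC content of the transcripts at a Spearman rho of 0.57, -0.341 and -0.249 in shXPO7_3/4OHT libraries T, A and B and 0.606, 0.115 and 0.781 in those of shXPO7_5/4OHT. The rho was 0.304, 0.125 and -0.0499 in vector libraries T, A and C. In vector/4OHT libraries T, A and B, set against their own mean, it was -0.177, -0.207 and 0.314. Among the members, transcript GC content was lowest in POSTN (37.9%) and LOX (42.4%) and highest in TNC (53.9%) and ELN (62.5%), against a median of 48.8% over the genes tested.

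The members together took 3.36% ± 0.220 of all counts in vector, 3.35% ± 0.299 in vector/4OHT, 3.13% ± 0.270 in shXPO7_3/4OHT and 3.28% ± 0.292 in shXPO7_5/4OHT (n = 3 each). Most of this was FN1, since the other members took 0.843% to 1.03% of the counts of a library. FN1 ranked 1 in 12 of 12 libraries with 2.004% to 2.72% of the counts, and the next genes, COL6A3 and COL1A1, which code for chains of collagens VI and I, took 0.693% to 1.23% and 0.637% to 1.08%. Levels of different members were compared per length of their annotated exons. In vector the order was FN1 (1303 ± 144 CPM per kb), SPARC (549), THBS1 (409), LOX (120.2), TNC (96.8), POSTN (94.9), FBN1 (51.3), THBS2 (16.0), FBN2 (15.3) and ELN (7.77). Libraries of TNC and POSTN, of POSTN and FBN1 and of THBS2 and FBN2 overlapped, and the other neighbours in this order did not. POSTN, which ranged from 51.8 to 127.5 CPM per kb, also overlapped LOX (112.5 to 129.3). In vector/4OHT, POSTN (313 CPM per kb) and TNC (127) stood above LOX (58.5), and ELN (0.292) was again last, with only FBN2 (10.8) and THBS2 (10.2) overlapping. FN1, SPARC and THBS1 led in this order in all 4 groups, although libraries of THBS1 and POSTN overlapped in both shRNA groups.

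The level of FN1, the main adhesive glycoprotein of the fibroblast matrix, did not separate induced from non-induced cells. In the order T, A and C it had 25424, 21340.2 and 20904 CPM in vector, and in the order T, A and B, used for every other group below, it had 27635, 22857 and 22551 in vector/4OHT. The shXPO7_3/4OHT libraries had 25894, 20387 and 20396 CPM and the shXPO7_5/4OHT libraries 27940.4, 22100.5 and 22640.5. The T library was the highest of its group in 4 of 4 groups, and the ranges of all groups overlapped. The log2 fold change in OIS was 0.11 (SE 0.13, 95% interval -0.17 to 0.39, adjusted p = 0.497 by edgeR, whose quasi-likelihood test gave every adjusted p below). With the library letter added to the model as a replicate block, FN1 had the same 0.11 with a narrower interval. That interval was -0.0056 to 0.22 (SE 0.051, edgeR adjusted p = 0.0999), and FN1 was again not called. The letter C occurs only in vector, so vector library C had a term of its own in the block. Every comparison with vector under the block therefore rests on vector libraries T and A. FBN1, FBN2 and TNC were also highest in the T library in 4 of 4 groups, and POSTN was lowest there in 3 of 4.

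The elastic fibre members fell in OIS, and ELN, the core protein of these fibres, fell far more than the others. ELN had 49.8, 51.4 and 51.3 CPM in vector and 1.86, 1.91 and 1.96 in vector/4OHT, which were 68, 54 and 97 counts. With shXPO7_3 it had 2.36, 1.48 and 1.84 CPM and with shXPO7_5 3.23, 2.05 and 3.55. The vector libraries lay more than 10 times above every induced library, and vector/4OHT kept 3.75% of the vector mean. The log2 fold change was -4.73 (SE 0.19, edgeR adjusted p = 8.59e-10), a fall of 26.6-fold. In bulk RNA, fewer cells making a transcript and less of it in each cell cannot be told apart.

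FBN1, the main fibrillin of adult microfibrils, had 862, 799 and 809 CPM in vector and 649, 562 and 547 in vector/4OHT. The shXPO7_3/4OHT libraries had 582, 545 and 541 CPM and the shXPO7_5/4OHT libraries 562, 491 and 459. Every induced library was below every vector library, and the log2 fold change in OIS was -0.49 (SE 0.086, edgeR adjusted p = 0.00043). FBN2, the fibrillin best known from developing tissue, had 224, 199 and 185 CPM in vector and 164, 136 and 129 in vector/4OHT. With shXPO7_3 the values were 166, 139.9 and 143 CPM and with shXPO7_5 142, 121 and 121. The induced libraries again lay below all vector libraries, with a log2 fold change in OIS of -0.50 (SE 0.11, edgeR adjusted p = 0.00258). The fibrillins fell side by side, since the log2 ratio of FBN2 to FBN1 counts was -2.03 ± 0.095 in vector and -2.04 ± 0.054 in vector/4OHT (n = 3, exact permutation p = 1.0).

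LOX, the crosslinking enzyme, had 624, 658 and 717 CPM in vector and 333, 327 and 313 in vector/4OHT. With shXPO7_3 it had 295, 349.6 and 349 CPM and with shXPO7_5 310.1, 382 and 287. The groups without and with 4OHT were well separated, and vector/4OHT was at 48.6% of the vector mean. The log2 fold change in OIS was -1.04 (SE 0.11, edgeR adjusted p = 4.81e-06). SRFBP1, a gene on the opposite strand that overlaps LOX, had 7896 counts over all libraries against 184962 for LOX, and whether strand was used in counting is not given.

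The matricellular members went both ways in OIS. POSTN, which binds collagen and integrins in healing tissue, rose most. It had 283, 576 and 697 CPM in vector and 1733, 1902 and 1500.3 in vector/4OHT. With shXPO7_3 it had 1048, 2026 and 2026 CPM and with shXPO7_5 825, 1800.3 and 855. All 9 induced libraries were above all 3 vector libraries. Its libraries were far apart in 3 of the 4 groups. The SD was 41.0% of the mean in vector, 11.8% in vector/4OHT, 33.2% in shXPO7_3/4OHT and 47.8% in shXPO7_5/4OHT, and the log2 fold change in OIS was 1.72 with a wide 95% interval of 0.91 to 2.54 (edgeR adjusted p = 0.00206). TNC, which loosens adhesion and is made in remodelling tissue, had 985, 910.3 and 904 CPM in vector and 1352, 1188 and 1123 in vector/4OHT. The shXPO7_3/4OHT libraries had 1212, 1069 and 1064 CPM and the shXPO7_5/4OHT libraries 1169.6, 1055 and 1128. The vector libraries were the lowest, and the log2 fold change in OIS was 0.39 (SE 0.081, edgeR adjusted p = 0.00165).

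SPARC, a collagen-binding glycoprotein, had 2834, 2627 and 2490.2 CPM in vector and 2128, 2111 and 2197 in vector/4OHT. With shXPO7_3 it had 2449, 2201 and 2221 CPM and with shXPO7_5 2607, 2390.1 and 2697. The vector/4OHT libraries were the lowest of the 12, by a small margin below shXPO7_3/4OHT, and the shXPO7_5/4OHT libraries overlapped with vector. In OIS the log2 fold change was -0.30 (SE 0.069, edgeR adjusted p = 0.00283). THBS2, a thrombospondin of connective tissue, had 103, 106 and 97.8 CPM in vector and 65.0, 68.8 and 61.6 in vector/4OHT. With shXPO7_3 it had 68.9, 68.6 and 70.2 CPM and with shXPO7_5 64.0, 63.5 and 64.6. Induced libraries were all lower, with a log2 fold change in OIS of -0.65 (SE 0.063, edgeR adjusted p = 3.2e-06).

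THBS1, a thrombospondin that activates TGF-beta, had 3762, 3694 and 3783 CPM in vector and 3449, 3212 and 3308 in vector/4OHT. With shXPO7_3 it had 3453, 3250.2 and 3417 CPM and with shXPO7_5 3593, 3334 and 3009. Every induced library was below every vector library, by a small margin. The log2 fold change in OIS was -0.17 (SE 0.066, edgeR adjusted p = 0.0454), and this call was lost without any 1 of the 6 libraries compared (adjusted p = 0.0587 to 0.155), with DESeq2, with the replicate block and without a filter on low counts. The thrombospondins parted in OIS, as the log2 ratio of THBS1 to THBS2 counts went from 5.19 ± 0.076 to 5.67 ± 0.11 (n = 3 each, exact two-sided permutation p = 0.1, the smallest that 3 libraries against 3 allow).

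In all, 2 of the 10 members were called higher in OIS (POSTN and TNC), 7 lower (ELN, LOX, THBS2, FBN2, FBN1, SPARC and THBS1) and 1 was not called (FN1). Across all genes tested 50.9% were called, 24.8% higher and 26.1% lower, so calls were common in this comparison. With upper-quartile factors the median of all genes moved to -0.105 and the share of higher genes among those called went from 48.8% to 38.3%, while 2 members were still called higher and 7 lower. The groups' libraries did not overlap for 9 of the 10 members and for 63.2% of all genes. The median log2 fold change was -0.40 over the members and -0.01 over all genes. In 3 members (ELN, POSTN and LOX) the change was at least 1 on the log2 scale.

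No member was called when either shRNA was compared with vector/4OHT, which served as the shared control of both. With shXPO7_3, 0.124% of all genes were called and 0 of the 10 members, with a median log2 fold change of 0.01 over the members and -0.00309 over all genes. Unadjusted p was under 0.05 for 979 of 15284 genes in edgeR and DESeq2 called 0 members. Log2 fold changes with shXPO7_3 lay between -0.13 (FN1 and TNC) and 0.09 (SPARC and THBS2), and the widest interval was that of POSTN, from -0.80 to 0.78. With shXPO7_5, 0.589% of all genes were called and again 0 members, while 3302 genes had an unadjusted p under 0.05. The median log2 fold change was -0.015 over the members and 0.01 over all genes. Libraries of shXPO7_5/4OHT and vector/4OHT did not overlap for 2 members, ELN and SPARC, and for 26.8% of all genes. For shXPO7_3 this held for 1 member, SPARC, by a small margin, and for 14.6% of all genes.

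The largest log2 differences with shXPO7_5 were 0.62 for ELN (95% interval 0.20 to 1.05, edgeR adjusted p = 0.146), -0.56 for POSTN (-1.35 to 0.23, adjusted p = 0.323), 0.26 for SPARC (0.11 to 0.41, adjusted p = 0.107) and -0.22 for FBN1 (-0.40 to -0.03, adjusted p = 0.205). None passed the threshold, and the exact two-sided permutation p was 0.1 for ELN and SPARC, the smallest possible. ELN and SPARC differed from vector/4OHT in the direction of the vector level. Even so, ELN in shXPO7_5/4OHT was at 5.79% of the vector mean, and SPARC was at 96.8%. DESeq2 called ELN and SPARC (2 members), and it called 426 genes in all where the main fit called 90.

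Library A of shXPO7_5/4OHT stood apart from T and B in POSTN and ELN. Its POSTN level of 1800.3 CPM was more than that of libraries T and B together, and its ELN level was the lowest of the group. Without it, 3 members were called against vector/4OHT, with log2 fold changes of 0.83 for ELN (edgeR adjusted p = 0.023), 0.31 for SPARC (adjusted p = 0.0291) and -1.02 for POSTN (adjusted p = 0.0498). In that fit 3634 genes were called in all, where the main fit called 90, so calls were common and not particular to the members. Libraries T and B were also those with the stronger GC trend. A separate fit kept library A and corrected for GC content and length. There the ELN and POSTN differences were 0.40 and -0.23 and, as in the main fit, not called. SPARC (0.19, edgeR adjusted p = 0.00607), LOX (0.22, adjusted p = 0.00753) and TNC (-0.22, adjusted p = 0.0453) were called in it, among 495 genes in all. No fit joined the correction with the loss of library A, and whether GC content has a part in these differences was not tested.

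With both shRNAs averaged, 0.556% of all genes and 0 members were called (1825 genes at an unadjusted p under 0.05). SPARC had the lowest p of the members, with all 6 shRNA libraries above all 3 vector/4OHT libraries, a log2 difference of 0.18 (edgeR adjusted p = 0.263) and an exact permutation p of 0.0238, the smallest for 6 libraries against 3 and 1 of 10 such tests. After the GC content and length correction SPARC (0.14, edgeR adjusted p = 0.0135), TNC (-0.18, adjusted p = 0.04) and LOX (0.15, adjusted p = 0.0295) were called, among 625 genes in all. Between the shRNAs, 0.0131% of all genes (2, of which XPO7 was 1) and 0 members were called, and 1819 genes had an unadjusted p under 0.05. The largest differences of shXPO7_5 from shXPO7_3 were 0.64 for ELN (95% interval 0.22 to 1.05) and -0.55 for POSTN (-1.34 to 0.24).

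**Figure D1:**
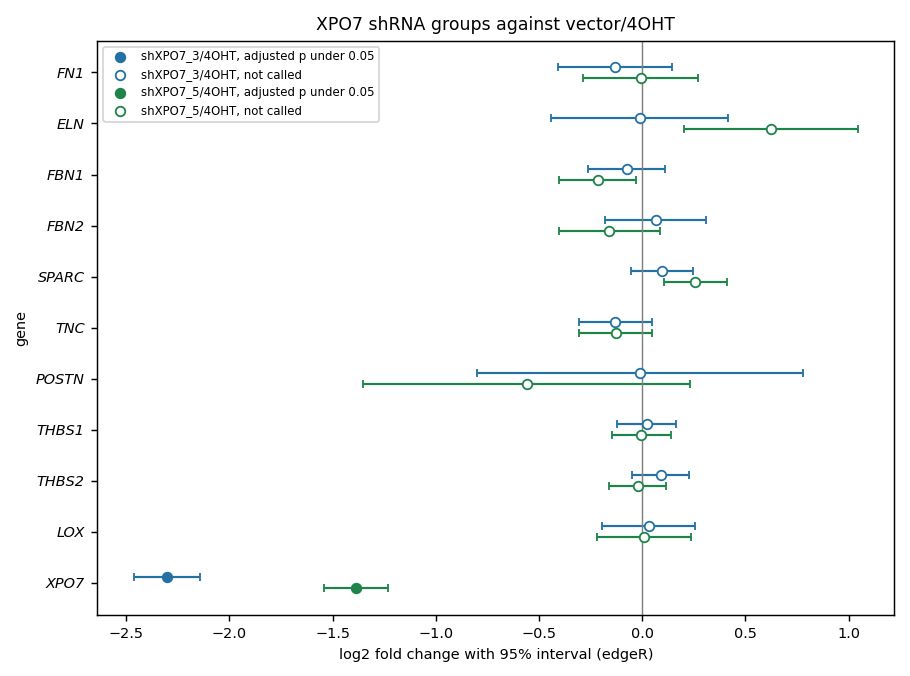
Log2 fold change (x axis) of each member and of XPO7 (y axis) in shXPO7_3/4OHT (blue) and shXPO7_5/4OHT (green) against vector/4OHT, with 95% intervals from edgeR, filled where the adjusted p was under 0.05. XPO7 is filled at -2.30 and -1.39, no member is filled, and the POSTN intervals are the widest.

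Measured from the non-induced vector cells, the pattern of the members was much the same in all 3 induced groups. With shXPO7_3, 2 members were called higher and 6 lower, against 24.5% and 26.2% of all genes. FN1 and THBS1 were not called there. With shXPO7_5, 2 members were called higher and 6 lower, against 25.3% and 27.0% of all genes, with FN1 and SPARC not called. THBS1 was among those lower (-0.18, edgeR adjusted p = 0.0396), and this call was lost with the replicate block (adjusted p = 0.085). The ELN log2 fold changes from vector were -4.73 in vector/4OHT, -4.74 in shXPO7_3/4OHT and -4.11 in shXPO7_5/4OHT. Those of LOX were -1.04, -1.01 and -1.03, and those of TNC 0.39, 0.26 and 0.26. For POSTN the values were 1.72, 1.71 and 1.16, and for SPARC -0.30, -0.21 and -0.05. The 3 comparisons use the same vector libraries, so their likeness is not independent evidence. Calls near the threshold moved with the libraries and the test used. That of POSTN with shXPO7_5 was lost without vector library T (0.87, edgeR adjusted p = 0.0544) or without library A of shXPO7_5/4OHT (0.70, adjusted p = 0.0887), and that of SPARC with shXPO7_3 was lost without vector library T (-0.16, adjusted p = 0.0969) or without library A or B of shXPO7_3/4OHT (-0.18 and -0.20, adjusted p = 0.0885 and 0.0529), and also with only the groups compared (adjusted p = 0.0519), without the T libraries (0.051) and with DESeq2 (0.0506). That of TNC was lost without vector library A or C and without the T library of the shRNA group, for both shRNAs (0.18 to 0.24, edgeR adjusted p = 0.0541 to 0.0823), and with upper-quartile factors (0.16 with shXPO7_3 and 0.21 with shXPO7_5).

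**Figure D2:**
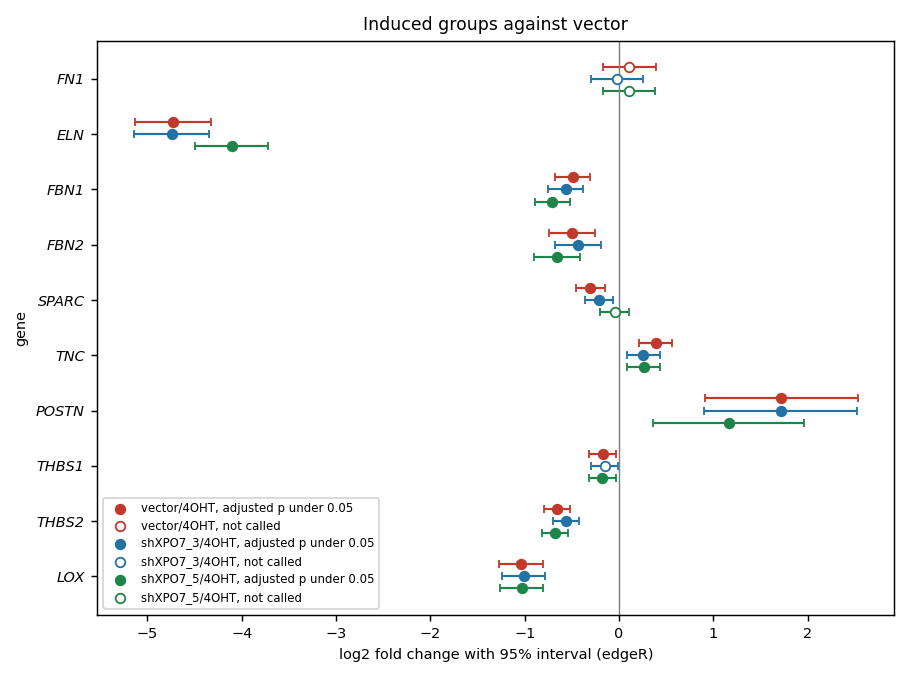
Log2 fold change (x axis) of each member (y axis) in vector/4OHT (red), shXPO7_3/4OHT (blue) and shXPO7_5/4OHT (green) against vector, with 95% intervals from edgeR, filled where the adjusted p was under 0.05. ELN lies at -4.73, -4.74 and -4.11, POSTN at 1.72, 1.71 and 1.16, and FN1 is not called in any of the 3.

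Ratios of related members moved little between induced groups. The log2 ratio of FBN2 to FBN1 was -1.90 ± 0.080 with shXPO7_3 and -1.98 ± 0.050 with shXPO7_5. The shXPO7_3 libraries were above all vector/4OHT libraries by a mean of 0.14 (exact permutation p = 0.1), and for shXPO7_5 the difference was 0.06 (exact permutation p = 0.3). The log2 ratio of THBS1 to THBS2 was 5.61 ± 0.041 and 5.69 ± 0.14, with differences from vector/4OHT of -0.07 and 0.01 (exact permutation p = 0.4 and 1.0).

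Of 14 other genes of elastic fibres 13 were tested, and in OIS 2 were called higher, 6 lower and 5 were not called, against 24.8% higher and 26.1% lower among all genes, with a median log2 fold change of -0.19. With the replicate block, which called 7987 genes in all, 8 were called lower in OIS. FBLN5 (-0.20, edgeR adjusted p = 0.0449) and EMILIN2 (-0.57, adjusted p = 0.0454) were those added. FBLN1 and FBLN2, which code for fibulins that bind elastin and microfibrils, fell by 1.90 and 1.83 on the log2 scale (edgeR adjusted p = 4.85e-08 and 8.84e-08), and EFEMP1, the fibulin-3 gene, fell by 1.64 (adjusted p = 1.9e-08). The genes that rose were MFAP2, a microfibril glycoprotein (0.75, edgeR adjusted p = 1.59e-05), and EMILIN1, a glycoprotein at the elastin surface (0.59, adjusted p = 0.000395). MFAP5 was not tested. With shXPO7_5, MFAP2 was the only partner called against vector/4OHT without the replicate block, and it was higher still (22.1 CPM in vector/4OHT and 30.3 with shXPO7_5, log2 0.46, adjusted p = 0.037). With both shRNAs averaged, EFEMP1 was the only one called and was lower still (13.4 CPM in vector/4OHT and 10.0 over the shRNA groups, log2 -0.42, adjusted p = 0.0397). With the replicate block the EFEMP1 call was lost (edgeR adjusted p = 0.0678), and MFAP4, a microfibril protein, was called higher with shXPO7_5 (0.45, adjusted p = 0.05 without and 0.0425 with the block). The call of MFAP2 with shXPO7_5 is a change away from the vector level, unlike the ELN difference there.

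No member of the lysyl oxidase family or of its pro-enzyme processing was called higher in OIS. Of 6 genes 4 were called lower and 2 were not called (median -0.36), against 26.1% called lower among all genes. LOXL1, a crosslinking enzyme of elastic fibres, fell most (146 CPM in vector and 43.3 in vector/4OHT, log2 -1.75, edgeR adjusted p = 1.78e-07). PCOLCE, which enhances procollagen processing by BMP1, fell by 0.42 (adjusted p = 0.00237) and LOXL3 by 0.43 (adjusted p = 0.00288). None of the 6 was called against vector/4OHT in the knockdowns.

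Among 11 of 15 other matricellular genes that were tested, 4 rose, 5 fell and 2 were not called in OIS, with a median of -0.21. Over all genes 24.8% were called higher and 26.1% lower. SPP1, which codes for the secreted phosphoprotein osteopontin, rose most of those averaging at least 2 on the log2 CPM scale (5.69 CPM in vector and 31.2 in vector/4OHT, log2 2.45, edgeR adjusted p = 4.52e-08). TGFBI, an integrin-binding protein induced by TGF-beta, rose by 0.84 (adjusted p = 3.56e-06) and SPOCK1, a proteoglycan, by 0.66 (adjusted p = 6.05e-05). CCN3 fell by 1.85 (adjusted p = 8.24e-09), CCN1 by 1.12 (adjusted p = 3.72e-07) and THBS3 by 0.29 (adjusted p = 0.03). CCN1 and CCN3 belong to a family of secreted regulators of adhesion and growth. No gene of this list was called against vector/4OHT in the knockdowns, except that TGFBI was called higher with shXPO7_5 once the replicate block was added (0.34, edgeR adjusted p = 0.0365, and 0.0822 without it), and SPARCL1, SMOC2, TNXB and CCN5 were not tested.

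Receptors of these proteins went both ways. Of 10 tested, 2 rose, 2 fell and 6 were not called in OIS, with a median of 0.21. Across all genes 24.8% were called higher and 26.1% lower, so these receptor counts were not above the general share. With the replicate block ITGB1 was also called higher in OIS (0.40, edgeR adjusted p = 0.0432). That fit called 7987 genes, 49.5% of them higher. ITGB3, the beta chain of the vitronectin receptor, rose by 1.57 (19.3 CPM in vector and 57.3 in vector/4OHT, edgeR adjusted p = 1.4e-07), and ITGA5, the alpha chain of the main fibronectin receptor, rose by 0.34 (adjusted p = 0.0139). SDC4, a heparan sulphate co-receptor for fibronectin, fell by 0.70 (adjusted p = 1.16e-05), and CD47, a receptor of thrombospondin, fell by 0.62 (adjusted p = 0.00013). None was called against vector/4OHT in the knockdowns, except that with the replicate block SDC4 was called lower with shXPO7_5 (-0.34, edgeR adjusted p = 0.0402) and with both averaged (-0.28, adjusted p = 0.0471). Fibroblast markers fell too, with 5 of 8 called lower in OIS, 0 higher and a median of -0.51, and of 5 smooth muscle markers 4 were called lower and 1 higher. The summed smooth muscle markers were 499 to 558 CPM in vector and 343 to 351 in vector/4OHT. Of 5 epithelial markers tested, 4 were called lower, with a median of -0.89, and KRT19 went from 33.6 CPM in vector to 2.01 in vector/4OHT. Of 3 endothelial markers tested, 1 was called lower and 0 higher. All these marker counts stand against the same 24.8% higher and 26.1% lower among all genes. With the replicate block 7 of 8 fibroblast markers were called lower in OIS, with VIM and PDGFRB added. Whether these shifts have a part in the members' changes was not tested. Among the fibroblast markers PDGFRB, a growth factor receptor, rose with shXPO7_5 against vector/4OHT (0.58, edgeR adjusted p = 0.0256), and the other 7 were not called there. With both shRNAs averaged 2 of 8 were called higher, against 0.556% of all genes called in either direction. With the replicate block COL1A1 was also called higher with shXPO7_5 (0.48, edgeR adjusted p = 0.0238) and with both averaged (0.38, adjusted p = 0.0395). PDGFRB was then called higher with shXPO7_3 too (0.51, adjusted p = 0.0319).

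**Figure D3:**
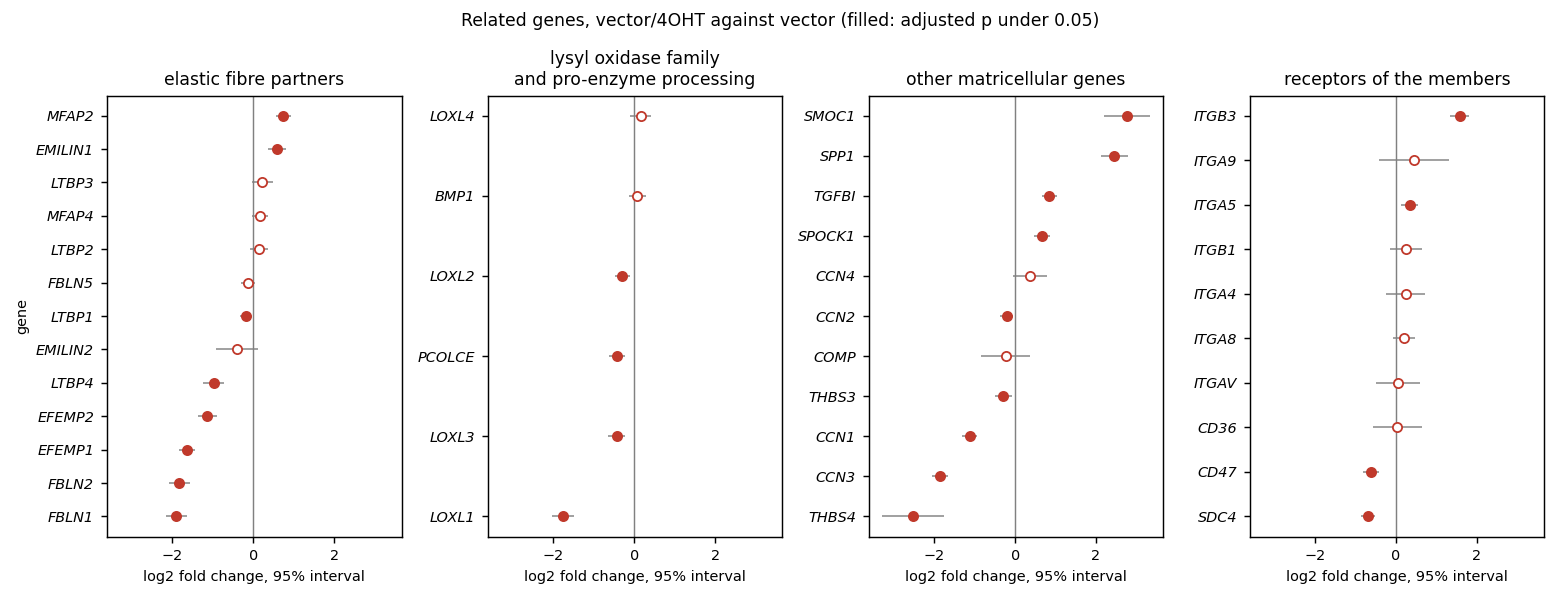
Log2 fold change in vector/4OHT against vector (x axis, with 95% intervals) of every tested gene (y axis) of the elastic fibre, lysyl oxidase, matricellular and receptor lists, filled where the adjusted p from edgeR was under 0.05. FBLN1, FBLN2 and EFEMP1 lie lowest of the elastic fibre partners, LOXL1 lowest of the lysyl oxidase family, and ITGB3 highest of the receptors.

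Across the 12 libraries, the genes whose log2 CPM followed FN1 most closely were IGF2R (Pearson r = 0.899), VPS13D (0.878) and MAP1A (0.87), among genes averaging at least 2 on the log2 CPM scale. IGF2R had 535 ± 68.9 CPM in vector and 572 ± 69.8 in vector/4OHT, also with overlapping libraries. For ELN they were C1R (r = 0.998), PARP1 (0.996) and LBH (0.996), all called lower in OIS, by 1.97, 1.14 and 2.69 on the log2 scale. These correlations describe libraries that share groups and preparation.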

How the data were processed

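RNA-seq of 12 libraries of IMR90 ER:RAS cells was analysed. The authors deposited raw counts of reads per gene, without normalization, for which the submitters' processing notes list genome builds GRCh37 and hg19 and the tools featureCounts 1.18.0, TopHat2 2.0.11 and CASAVA 1.8.4. Which annotation was counted, and whether by strand, is not given in the sources used here. There were 62069 genes, of which 38397 were matched to a symbol (99.4% of counts), and 92 spike-in entries at 0 that were left out. The unused columns numbered 0.

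Counts were fitted in R 4.3.3 with edgeR 4.0.16 (limma 3.58.1) by its quasi-likelihood test over all 12 libraries in 4 groups, after filterByExpr (15284 genes) and TMM scaling, since the study names no test for these counts. Adjusted p is by the Benjamini-Hochberg method over every tested gene, and genes were called under 0.05. Intervals are at 95%. Single values also had an exact two-sided permutation test on mean log2 CPM (prior count 0.5, scipy 1.17.1). Exon lengths and GC content came from GENCODE release 29 on GRCh38, matched by identifier. Chi-square per gene between libraries of a group was 4.27 to 56.2, more than counting noise gives. Members and lists were chosen with earlier results of these data known. Named genes of a list were up to 3 rising and 3 falling genes with the largest change in OIS among called genes that averaged at least 2 on the log2 CPM scale and had separate libraries, and any called among induced groups. Named besides were the 3 genes most alike to FN1 and ELN, the next most read genes, XPO7, and PDGFRB, KRT19, TEK and MFAP4, the last 4 chosen after their values were seen. Alternatives were RLE and upper-quartile factors (DESeq2 1.42.0 as another test), other filters, the replicate letter as block, GC content and length correction (97.3% of genes had both), library sizes without the members, only the groups compared, a log2 fold change of at least 1, each library left out, and, added after the data were seen, all 4 libraries lettered T left out.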

Additional observations from a re-analysis of the deposited data

How the results depend on the processing

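Of 160 values for the members in OIS under the alternatives, 151 kept their direction and side of the threshold and 9, all of THBS1, were no longer called. Members called with a log2 fold change of at least 1 numbered 3 in OIS and 3 from vector with each shRNA, as smaller changes were dropped. Against vector/4OHT, shXPO7_5 had 3 members called after the GC content and length correction, 2 with DESeq2 and 0 to 3 with each library left out, and the mean of both shRNAs had 3 after that correction. The cause was not tested. Calls over all genes among induced groups moved more. For shXPO7_3 they went from 19 to 8 with upper-quartile factors, 30 with no filter beyond 1 count, 377 with the GC content and length correction, 88 with DESeq2, 2 with only the groups compared and 1 with any library left out. For shXPO7_5 they went from 90 to 217, 495, 426, 10 and 2 to 3634 under the last 5 of these, and for the mean of both from 85 to 37 with upper-quartile factors, 625 with the correction, 248 with DESeq2, 39 with only the groups compared and 1 to 191 with a library left out. Between the shRNAs they went from 2 to 20 with no filter, 32 with the correction, 27 with DESeq2, 0 with only the groups compared and 1 to 4 with a library left out. Requiring a log2 fold change of at least 1 left 2573 of 7777 genes in OIS, 2607 of 7741 and 2710 of 7999 from vector, and 2, 8, 5 and 0 among induced groups. Without the 4 libraries lettered T, chosen after the data were seen, 1 gene was called in each comparison among induced groups.

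Signs of log2 differences near 0 changed, and no value that changed sign was called. For shXPO7_3 against vector/4OHT these were ELN (0.0025 with RLE and with DESeq2) and POSTN (0.0058 with RLE, 0.0057 with DESeq2, 0.25 without the T libraries). For shXPO7_5 they were FN1 (0.010 with RLE and DESeq2, 0.047 with upper-quartile factors, 0.0028 without the T libraries), THBS1 (0.012 with RLE and DESeq2, 0.047 with upper-quartile factors, 0.026 when corrected for GC content and length) and THBS2 (0.029 with upper-quartile factors, 0.00085 without the T libraries), and from vector SPARC was at 0.0075 with that correction. With each library left out, shXPO7_3 gave -0.19 to 0.12 for ELN, -0.13 to 0.0027 for FBN1, -0.023 to 0.18 for FBN2, -0.16 to 0.24 for POSTN, -0.0022 to 0.049 for THBS1 and -0.011 to 0.10 for LOX. Likewise shXPO7_5 gave -0.12 to 0.094 for FN1, -0.066 to 0.062 for THBS1, -0.059 to 0.019 for THBS2, -0.12 to 0.097 for LOX and, from vector, -0.093 to 0.0077 for SPARC, and the mean of both gave -0.044 to 0.061 for LOX.

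The labels do not explain the replicate letters, and they were not taken as pairs. Deviations from the group means correlated at -0.17 to 0.55 (median 0.0907) over 15 same-letter pairs, with 7 over 0.1. Over 39 different-letter pairs the range was -0.588 to 0.426 (median -0.0651), with 12 over 0.1. Still, FN1, FBN1, FBN2 and TNC were highest in the T library in 4 of 4 groups, a shift that the main fit does not model. With the letter as replicate block, 8 members were called in OIS (without THBS1). From vector, 8 and 7 were called with shXPO7_3 and shXPO7_5 (the latter without THBS1). Over all genes the block fit called 7987, 7875 and 7330 of 15284 in these comparisons. They rest on vector libraries T and A, since vector library C, the only one so lettered, had its own term. THBS1 in OIS was also not called without vector library C (edgeR adjusted p = 0.0998). Among induced groups 0 members were called with the block, while the genes called for shXPO7_5 against vector/4OHT numbered 149 in place of 90. ELN rests on 54 to 97 counts per library in vector/4OHT, which limits the precision of its differences among induced groups.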
